A study of Mus musculus with 3 samples.

Results

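The circadian clock genes described here are Per1, Per2, Per3, Dbp, Tef, Nr1d1, Nr1d2, Clock, Npas2 and Cry1, which were chosen by name as rows of the deposited expression table. All 10 were found among its 26970 genes, and all 10 averaged 1 FPKM or more across the libraries, as did 13026 genes in all, which are the genes compared below. FPKM is the number of sequenced fragments per length of exon, scaled to the size of the library. Levels can thus be set side by side between genes and between libraries, but a gene reads lower when other genes take more of a library. RNA sequencing was done on mandibular condyles, with cartilage and subchondral bone kept together, of 4-month-old mice on a C57BL/6 background. The groups were WT mice (genotype +/+), mice with 1 deleted copy of Dspp (Dspp+/-) and mice with the global homozygous knockout (Dspp-/-), and no further allele or treatment is named for any of them. The heterozygous mice came from crosses of knockout with C57BL/6 mice. Each genotype had 1 library and 1 column of values, although the labels also speak of triplicate samples. According to the methods of the study, tissue of 3 animals was pooled for WT and for Dspp+/-, and the number of animals behind the Dspp-/- library is not given. Without replicates the genotypes could not be tested against each other, and the ranges in parentheses below are 95% intervals of counting error that say nothing of the spread between mice. Neither the labels nor the methods give the hour at which the mice were killed or the light cycle.

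The circadian clock is a feedback loop of transcription that runs in most cells, bone and cartilage cells included. CLOCK, or its relative NPAS2, pairs with BMAL1 (encoded by Arntl) and binds E-box sequences to drive the Per, Cry, Nr1d and Dbp genes, after which PER and CRY proteins repress that pair. The Nr1d proteins (REV-ERBs) repress Arntl, Npas2, Clock, Cry1 and Nfil3 through RORE sequences, and DBP, TEF and HLF activate D-box sequences at which NFIL3 represses. In peripheral tissues the Per, Nr1d and Dbp transcripts therefore peak at a different time of day from Arntl and Npas2, and the balance of these sides within a library is a common readout of clock phase.

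Sequences before the start of transcription were taken from RefSeq for build GRCm38.p6 to show where the loop's binding motifs lie in genes that are compared below. Of the 10 clock genes, 9 had an entry there, with 13 start sites, and the entry for Per2 was missing. In the 250 bases before each start, both strands were searched for the E-box CACGTG, the D-boxes TTATGTAA and TTACGTAA, the RORE letters TAGGTCA and TGGGTCA, and the CRE TGACGTCA. The E-box was found in Per1, Tef and Cry1, against 6.86% of the 27025 genes with an entry, and a D-box was found in Per3, against 1.095% of genes. The RORE letters, held by 6.15% of genes, and the CRE, held by 1.769%, were in none of the 9 clock genes. No motif was found in this window for Dbp, Nr1d1, Nr1d2, Clock or Npas2, which says only that these letters are not in these bases. The sequences below run 5′ to 3′ on the strand of the gene, with the motif in capitals.
Per1 E-box, 166 bases before its upstream start, chr11:69098753-69098818, plus strand: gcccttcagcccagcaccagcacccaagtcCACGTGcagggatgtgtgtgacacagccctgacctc
Per3 pair of D-boxes, 205 and 158 bases before the start, chr4:151044786-151044900, minus strand: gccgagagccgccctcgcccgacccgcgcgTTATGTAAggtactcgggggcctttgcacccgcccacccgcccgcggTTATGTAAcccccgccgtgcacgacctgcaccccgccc
Tef E-box, 127 bases before its upstream start, chr15:81802516-81802581, plus strand: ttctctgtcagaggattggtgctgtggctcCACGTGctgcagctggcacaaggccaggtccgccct
Tef E-box, 138 bases before its downstream start, chr15:81811246-81811311, plus strand: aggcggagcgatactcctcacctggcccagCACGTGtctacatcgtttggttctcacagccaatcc
Cry1 E-box, 60 bases before the start, chr10:85185079-85185144, minus strand: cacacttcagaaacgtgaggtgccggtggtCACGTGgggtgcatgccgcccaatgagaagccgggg
Among the 10 partner genes of the loop described below, 9 had an entry, and the E-box was found in Ciart and Bhlhe41, the RORE letters in Nfil3 and the CRE in Hlf. These are shown for Bhlhe41 and Nfil3, picked by their values because they stood on opposite sides of WT in Dspp+/-. Of the genes found to hold the E-box, Cry1 was higher than WT in Dspp+/-, and Per1, Tef and Bhlhe41 were lower. Ciart averaged less than 1 FPKM and was not compared. Whether the E-box goes with a direction was not tested, and a window of 250 bases cannot show which genes lack it.
Bhlhe41 E-box, 153 bases before the start, chr6:145865538-145865603, minus strand: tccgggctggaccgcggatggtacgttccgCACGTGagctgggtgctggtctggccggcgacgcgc
Nfil3 RORE letters, 12 bases before the start and on the opposite strand, chr13:52981040-52981081, minus strand: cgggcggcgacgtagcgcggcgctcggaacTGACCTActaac

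The number of fragments behind the values was 20241576 in WT, then 23613621 in Dspp+/- and 22253158 in Dspp-/-. Each clock gene had between 154 (Dbp in Dspp+/-) and 4595 (Nr1d2 in Dspp-/-) fragments. The composition of the libraries differed. The mitochondrial share of all FPKM was 25.0% for WT, 36.9% for Dspp+/- and 37.3% for Dspp-/-, and Xist, expressed in cells of female mice, had 0.00551, 28.5 and 26.5 FPKM in the same order. Sex and genotype cannot be told apart in these libraries. In pooled tissue, fewer cells of a type and less RNA per cell cannot be told apart either.

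In Dspp+/- all 7 of the Per, Dbp, Tef and Nr1d genes were lower than in WT, with Dbp at 0.111 of its WT level, and Npas2, Clock and Cry1 were higher. In Dspp-/-, 5 of those 7 genes were higher than in WT and 2 (Per1 and Dbp) were lower, while Npas2 was at 0.389 of its WT level. As background, 56.3% of all genes compared were higher in the Dspp+/- library, and 50.7% were in the Dspp-/- library. With 7 genes, the count of 5 was not far above the latter share. Of the 10 genes, 2 were at least 2-fold lower in Dspp+/- than in WT on the scale of log2(FPKM + 1), where 2.86% of all genes compared were, and 0 were at least 2-fold higher, where 4.88% of all genes were. The count of 2 became 1 (Dbp) when the libraries were scaled without mitochondrial genes or with a pseudocount of 5, where Nr1d1 had a log2 ratio of -0.99 and -0.92. In Dspp-/- against WT, 1 was at least 2-fold lower against a background of 1.37%, and 0 were higher against 4.05%. That gene was Npas2, and with a pseudocount of 5 its log2 ratio was -0.61 and the count 0. The median log2 ratio of the 7 genes was -0.70 in Dspp+/- and 0.21 in Dspp-/-, beside medians over all 13026 genes of 0.058 and 0.007. The WT library is shared by both comparisons. The medians of Clock and Npas2 were 0.15 and -0.51, each a midpoint of 2 genes. In Dspp-/- neither gene was near it, with Clock at 0.058 and Npas2 at -1.09.

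**Figure D1:**
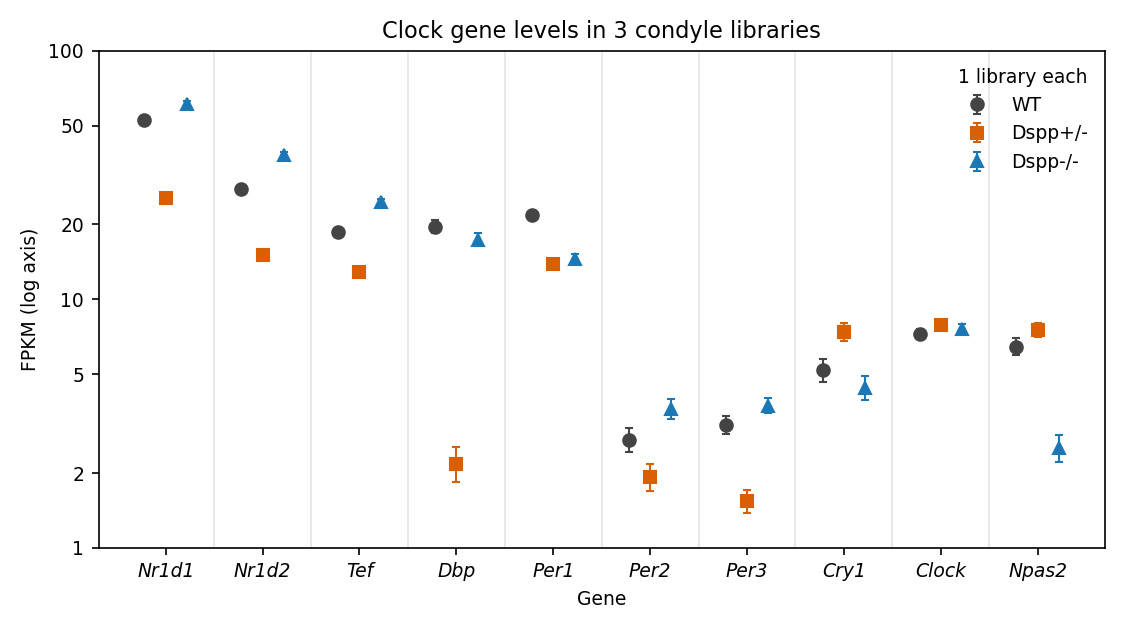
FPKM (log axis) of the 10 clock genes in the WT, Dspp+/- and Dspp-/- libraries, 1 library each; bars are 95% exact Poisson intervals of counting error. Dbp stands at 2.18 FPKM in Dspp+/- against 19.6 and 17.4 in the other libraries, and Npas2 at 2.51 in Dspp-/- against 6.46 and 7.53.

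Dbp encodes a PAR bZIP activator that is a direct target of CLOCK and BMAL1 and a sensitive readout of the clock in many tissues. In the authors' table it runs from 45354512 to 45359627 of chromosome 7, on the plus strand. Dbp had 19.6 FPKM in WT (1189 fragments), 2.18 in Dspp+/- (154 fragments) and 17.4 in Dspp-/- (1158 fragments). The Dspp+/- library was the low one, and WT and Dspp-/- were close to each other. The ratio of FPKM to WT was 0.111 (0.0933 to 0.131) for the Dspp+/- library and 0.886 (0.816 to 0.961) for Dspp-/-. On the log2(FPKM + 1) scale, Dbp was lower by 2.70 in Dspp+/-, and 9 of the 13026 genes compared were lower still. Part of the Dbp exons, 18.0% of their length, is covered by Sphk2 on the other strand in GENCODE M21. Sphk2, a sphingosine kinase gene, had 6.21 FPKM in WT, then 7.70 in Dspp+/- and 5.31 in Dspp-/-, so it was highest where Dbp was lowest. Without strand, fragments from the shared bases cannot be told apart. Of the 100-base sequences in the Dbp exons, 14.3% also occur in other genes on either strand, and for Nr1d1 5.71% do. Bases covered by a gene on the other strand count among them, so this is not a limit separate from the overlap.

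Tef encodes another PAR bZIP activator of D-boxes, and its 2 start sites each carry the E-box shown above. It lies on chromosome 15 from 81686622 to 81711064, on the plus strand. Tef had 18.7 FPKM in WT, then 12.9 in Dspp+/- and 24.6 in Dspp-/-. Dspp+/- was the low library, as for Dbp, and Dspp-/- was above WT. The ratios to WT were 0.688 (0.652 to 0.726) and 1.31 (1.25 to 1.38).

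Nr1d1 and Nr1d2 encode the REV-ERB repressors of Arntl. Nr1d1, on chromosome 11 from 98658758 to 98666159 on the minus strand, had the highest level of the 10 genes in every library, with 52.6 FPKM in WT, then 25.5 in Dspp+/- and 60.9 in Dspp-/-. Nr1d2, on chromosome 14 from 4230569 to 4265642 on the plus strand, was next in every library, with 27.7, 15.1 and 38.2 FPKM. Both genes were lowest in Dspp+/- and highest in Dspp-/-. The ratio to WT in Dspp+/- was 0.486 (0.458 to 0.514) for Nr1d1 and 0.543 (0.513 to 0.576) for Nr1d2. In Dspp-/- the ratio was 1.16 (1.11 to 1.21) for Nr1d1 and 1.38 (1.31 to 1.44) for Nr1d2. Nr1d1 was just past the 2-fold threshold, with a log2 ratio of FPKM + 1 of -1.01, and Nr1d2 was just inside it at -0.84. Thra, the thyroid hormone receptor alpha gene, covers 8.55% of the Nr1d1 exon length from the other strand, and had 21.1, 17.6 and 15.3 FPKM in WT, Dspp+/- and Dspp-/-.

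The Per genes encode the PERIOD repressors of the loop. Per1, on chromosome 11 from 68986043 to 69000786 on the plus strand, had 21.8 FPKM in WT, then 13.9 in Dspp+/- and 14.5 in Dspp-/-. It was low in both mutant libraries, with ratios to WT of 0.639 (0.601 to 0.679) and 0.666 (0.626 to 0.708). Between the mutant libraries Per1 differed by less than its counting interval, with a ratio of Dspp-/- to Dspp+/- of 1.04 (0.976 to 1.11). Per2, on chromosome 1 from 91343704 to 91387046 on the minus strand, had 2.72, 1.92 and 3.63 FPKM in the same order. Per3, on chromosome 4 from 151088109 to 151129122 on the minus strand and with the pair of D-boxes shown above, had 3.13, 1.54 and 3.74 FPKM. Both were lowest in Dspp+/- and highest in Dspp-/-, unlike Per1. The ratio to WT in Dspp+/- was 0.706 (0.598 to 0.833) for Per2 and 0.492 (0.430 to 0.562) for Per3. In Dspp-/- it was 1.33 (1.15 to 1.54) for Per2 and 1.20 (1.07 to 1.33) for Per3.

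On the other side of the loop, Clock encodes the partner of BMAL1 and cycles weakly in many tissues. Clock, on chromosome 5 from 76357715 to 76452639 on the minus strand, had 7.27 FPKM in WT, then 7.87 in Dspp+/- and 7.61 in Dspp-/-. The 3 libraries were close together, with ratios to WT of 1.08 (1.02 to 1.15) and 1.05 (0.985 to 1.11). Npas2, which can take the place of Clock, lies on chromosome 1 from 39232812 to 39402317 on the plus strand. Npas2 had 6.46 FPKM in WT (626 fragments), 7.53 in Dspp+/- (852 fragments) and 2.51 in Dspp-/- (268 fragments). Here Dspp-/- was the low library, and WT and Dspp+/- were close. The ratio to WT was 1.17 (1.05 to 1.30) for the Dspp+/- library and 0.389 (0.336 to 0.450) for Dspp-/-. On the log2(FPKM + 1) scale, Npas2 was lower by 1.09 in Dspp-/-, and 123 of the 13026 genes compared were lower still. Cry1 encodes a CRYPTOCHROME repressor whose transcript peaks later than the Per genes, and lies on chromosome 10 from 84967564 to 85020928 on the minus strand. Cry1 had 5.18 FPKM in WT, then 7.38 in Dspp+/- and 4.41 in Dspp-/-, an order opposite to that of Per2 and Per3. Its ratio to WT was 1.43 (1.25 to 1.63) for the Dspp+/- library and 0.852 (0.731 to 0.994) for Dspp-/-.

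Ordered by FPKM within a library, the genes kept some places and changed others. Dbp was in place 4 in WT and Dspp-/- and in place 8 in Dspp+/-, next to Per2. Npas2 was in place 7 in WT, place 6 in Dspp+/- and place 10 in Dspp-/-. Each gene's level was divided by that of the next gene in the order, and in WT the interval of this ratio held 1 for Dbp over Tef, at 1.05 (0.981 to 1.12). In Dspp+/- it held 1 for Clock over Npas2, at 1.04 (0.966 to 1.13), for Npas2 over Cry1, at 1.02 (0.917 to 1.14), and for Dbp over Per2, at 1.13 (0.923 to 1.39). In Dspp-/- it held 1 for Per3 over Per2, at 1.03 (0.918 to 1.16). The other neighbours in the 3 libraries differed by more than counting error, Per3 over Per2 in WT only just, at 1.15 (1.001 to 1.32).

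Between the mutant libraries themselves, 4 of the 10 clock genes were at least 2-fold apart on the scale of log2(FPKM + 1). All 7 of the Per, Dbp, Tef and Nr1d genes were higher in Dspp-/- than in Dspp+/-, where 44.7% of all genes were. Per1 is counted among the 7, although the interval of its ratio, 1.04 (0.976 to 1.11), held 1. The median log2 ratio of the 7 was 0.90, beside -0.037 over all genes. Dbp, Nr1d1 and Nr1d2 were at least 2-fold higher, which is 3 of the 10 clock genes, where 0.852% of all genes were. Npas2 was at least 2-fold lower, where 0.798% of all genes were. The ratio of Dspp-/- to Dspp+/- was 7.98 (6.74 to 9.50) for Dbp, 2.38 (2.26 to 2.52) for Nr1d1, 2.53 (2.40 to 2.67) for Nr1d2 and 0.334 (0.290 to 0.383) for Npas2. Per3 had a ratio of FPKM of 2.43 (2.14 to 2.76), past 2-fold, but a log2 ratio of FPKM + 1 of 0.90, which was 1.23 with a pseudocount of 0.1. With a pseudocount of 5 Npas2 was no longer 2-fold lower, at -0.74. For Dbp, 6 of the 13026 genes had a higher log2 ratio in this comparison, and for Npas2, 51 had a lower one. Clock had a ratio of 0.968 (0.914 to 1.02), and its log2 ratio turned from -0.04 to 0.0035 when the libraries were scaled without mitochondrial genes.

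**Figure D2:**
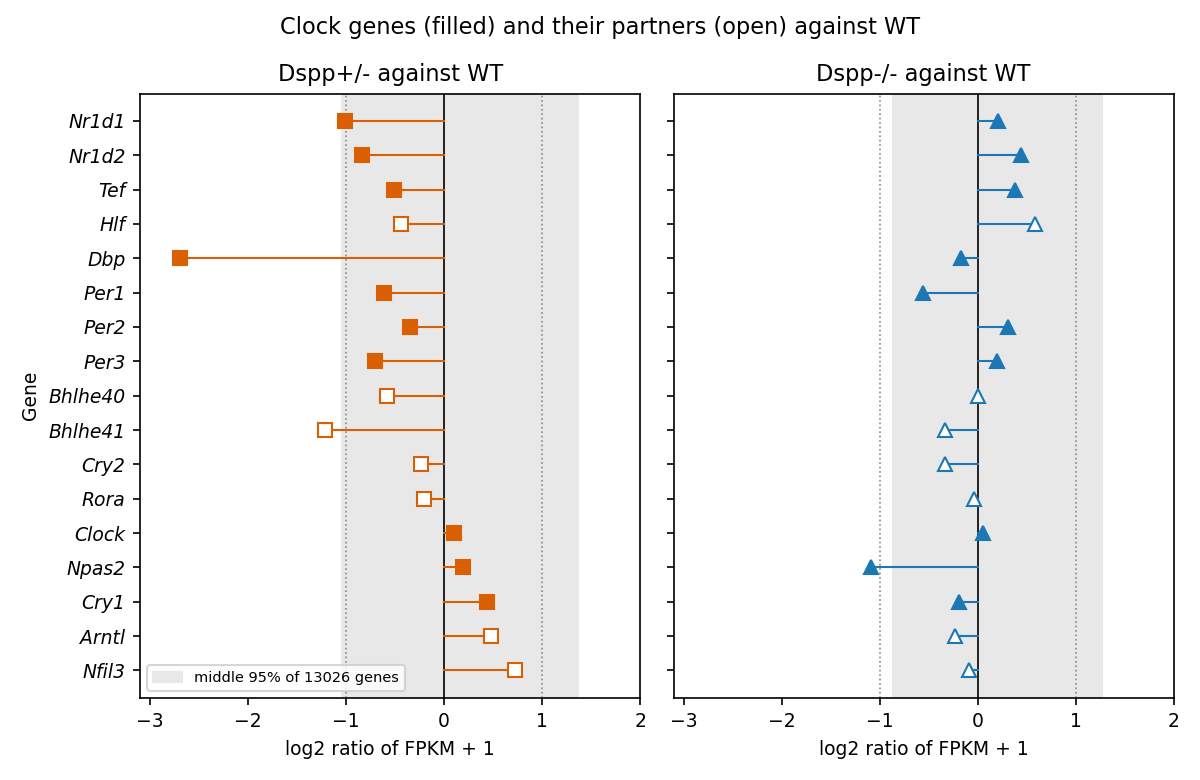
Log2 ratio of FPKM + 1 to WT for the 10 clock genes (filled) and 7 partners (open) in Dspp+/- and in Dspp-/-, 1 library each; dotted lines mark 2-fold and the grey band holds the middle 95% of the 13026 genes compared. In Dspp+/- Dbp at -2.70 and Bhlhe41 at -1.22 lie below the band, and in Dspp-/- Npas2 at -1.09 does.

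The question whether the libraries match in clock state was put as a contrast within each library, the mean log2 FPKM of Per1, Per2, Per3 and Dbp minus that of Clock and Npas2. A contrast of this kind does not change when a library is scaled. It was 0.18 (0.097 to 0.27) for WT, -1.32 (-1.42 to -1.22) for Dspp+/- and 0.81 (0.70 to 0.91) for Dspp-/-. The 3 values lay apart by more than their counting intervals, so the libraries did not share 1 level of this contrast. Dspp+/- was below WT by 1.50 (a difference of -1.50, interval -1.63 to -1.37), and Dspp-/- was above WT by 0.62 (0.49 to 0.76).

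The distance from WT came from different genes in the mutant libraries. Against Clock alone, the contrast of the Per genes and Dbp was 0.095 in WT, -1.35 in Dspp+/- and 0.0070 in Dspp-/-, so Dspp-/- was then no longer above WT, with a difference of -0.088 (-0.20 to 0.025). Against Npas2 alone it was 0.27 in WT, -1.29 in Dspp+/- and 1.61 in Dspp-/-. Dbp was 3.04 times Npas2 in WT, 0.289 times in Dspp+/- and 6.92 times in Dspp-/-, and the ratio of Npas2 to Clock was 0.887, 0.957 and 0.330. In Dspp+/- the low contrast thus rested most on Dbp and less on each Per gene, and in Dspp-/- the high one on Npas2. Against Clock, the log2 difference of Dspp+/- from WT was -3.28 for Dbp, -0.76 for Per1, -0.62 for Per2 and -1.14 for Per3. Genotype, the time of day of dissection, the sex of the animals and the cell composition of the pools cannot be told apart as sources of these differences, since each genotype has 1 library.

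**Figure D3:**
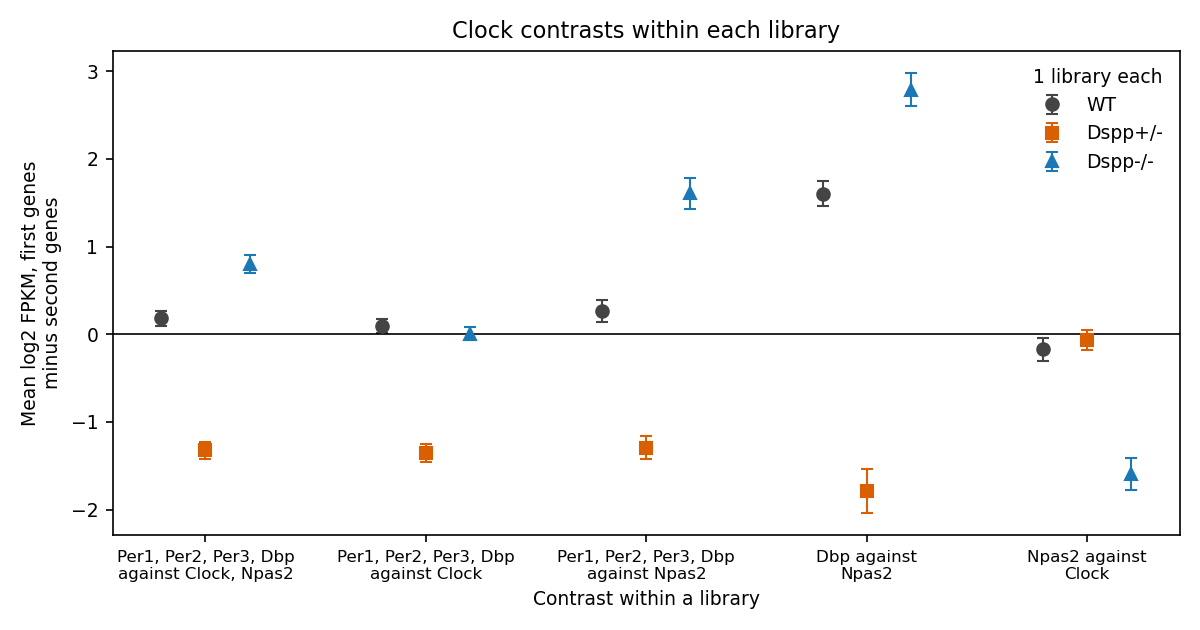
Mean log2 FPKM of the first named genes minus that of the second named genes within each library, 1 library per genotype; bars are 95% intervals of counting error. In the contrast of Per1, Per2, Per3 and Dbp with Clock and Npas2, WT is at 0.18, Dspp+/- at -1.32 and Dspp-/- at 0.81, and with Clock alone WT and Dspp-/- lie together.

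Partner genes of the loop, listed by role, were read in the same way. Of the 5 core partners (Arntl, Arntl2, Cry2, Rora and Rorb), 3 passed the filter of 1 FPKM. In Dspp+/- 1 was higher and 2 lower, and in Dspp-/- 0 were higher and 3 lower, none by 2-fold. Over all genes 56.3% were higher in Dspp+/- and 50.7% in Dspp-/-. Arntl, which encodes BMAL1, had 4.33 FPKM in WT, then 6.45 in Dspp+/- and 3.53 in Dspp-/-, the same order as Cry1 and Npas2. Its ratio to WT was 1.49 (1.35 to 1.64) and 0.815 (0.728 to 0.912). Cry2, the other CRYPTOCHROME gene, had 8.50, 7.10 and 6.55 FPKM, and Rora, which encodes an activator of RORE sequences, had 10.5, 8.95 and 10.2. Arntl2, with 0.373, 0.573 and 0.576 FPKM, and Rorb, with 0, 1 and 1 fragments, were under the filter.

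Of the 5 repressors and D-box partners, 4 passed the filter, with 3 lower in Dspp+/- and 2 lower in Dspp-/-. Over all genes 56.3% were higher in Dspp+/- and 50.7% in Dspp-/-, so the count in Dspp-/- was near that share. Bhlhe41 and Bhlhe40 encode the DEC repressors of E-boxes. Bhlhe41 had 7.73 FPKM in WT, then 2.76 in Dspp+/- and 5.92 in Dspp-/-. With a ratio to WT of 0.357 (0.319 to 0.399) in Dspp+/-, it was the 1 gene of the list at least 2-fold lower there, as 2.86% of all genes were. A predicted gene, Gm43909, covers 19.0% of its exon length from the other strand and had 0.263, 0.0677 and 0.311 FPKM. Bhlhe40 had 19.6, 12.7 and 19.6 FPKM, with Dspp+/- the low library. Hlf, the third PAR bZIP gene, had 2.30, 1.43 and 3.95 FPKM, the order of Tef. Nfil3, whose protein represses the D-boxes that DBP, TEF and HLF activate, had 12.0 FPKM in WT, then 20.5 in Dspp+/- and 11.3 in Dspp-/-, and its ratio to WT was 1.71 (1.53 to 1.91) in Dspp+/-. Ciart, a repressor of CLOCK and BMAL1, was under the filter with 29, 28 and 26 fragments.

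Ratios between genes that oppose each other in the loop, chosen after their values were seen, were read within each library. The ratio of Nfil3 to Dbp was 0.613 in WT, then 9.43 in Dspp+/- and 0.648 in Dspp-/-. That of Nr1d1 to Arntl was 12.1 in WT, then 3.96 in Dspp+/- and 17.2 in Dspp-/-. Dspp+/- was apart from WT by 15.4-fold in the ratio of Nfil3 to Dbp, while WT and Dspp-/- differed by less than counting error there, with a difference of 0.081 on the log2 scale (-0.13 to 0.29).

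Genes that act on clock proteins were read next. Of the 6 kinase and ligase genes (Csnk1d, Csnk1e, Gsk3b, Fbxl21, Btrc and Fbxw11), 5 passed the filter, with log2 ratios of FPKM + 1 between -0.13 and 0.30 in Dspp+/-, and between -0.16 and 0.15 in Dspp-/-. Csnk1d, which encodes a casein kinase that phosphorylates the PER proteins, had 20.9, 19.1 and 19.0 FPKM. Csnk1e had 8.59, 9.81 and 7.60 FPKM, Gsk3b 11.8, 12.0 and 13.3, and Fbxw11 18.3, 16.6 and 18.8. Btrc, a low gene, had 1.34, 1.89 and 1.60 FPKM, a ratio to WT of 1.41 (1.25 to 1.59) in Dspp+/-. Fbxl21 was under the filter with 26, 8 and 19 fragments, a ratio to WT of 0.264 (0.103 to 0.600) in Dspp+/-. All 4 output genes were higher in both mutant libraries, none by 2-fold, where 56.3% of all genes were higher in Dspp+/- and 50.7% in Dspp-/-. Noct, the nocturnin gene, had 1.62 FPKM in WT, then 2.84 in Dspp+/- and 2.55 in Dspp-/-, and Nampt, which encodes an enzyme of NAD synthesis, had 21.0, 27.5 and 30.8. Usp2, a ubiquitin protease gene, had 15.9, 21.3 and 20.8 FPKM, and Wee1, a cell cycle kinase gene, had 4.96, 5.51 and 5.88, with a ratio to WT in Dspp+/- of 1.11 whose interval held 1 (0.964 to 1.28). Their median log2 ratio was 0.39 in Dspp+/- and 0.41 in Dspp-/-.

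Genes whose pattern was nearest to the median of Per1, Per2, Per3 and Dbp were sought among the 7125 genes that averaged 5 FPKM or more, by the distance of their pair of log2 ratios to WT from the pair -0.66 and 0.02. Snx10 (distance 0.0236), Rps12 (0.0317) and Omd (0.0364) were nearest, and 16 genes were within 0.1. This likeness is over 3 libraries, and it is to a median pair that none of these clock genes held itself. Their own pairs were -0.61 and -0.56 for Per1, -0.35 and 0.31 for Per2, -0.70 and 0.20 for Per3, and -2.70 and -0.17 for Dbp. Snx10 had 14.9, 8.92 and 15.1 FPKM in the order used above, Rps12, a ribosomal protein gene, 102, 63.6 and 101, and Omd, which encodes the bone matrix proteoglycan osteomodulin, 174, 113 and 174.

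Markers of several cell types differed between the same libraries. The 6 osteoblast genes were all lower in both mutants, with a median log2 ratio of -1.47 in Dspp+/- and -0.89 in Dspp-/-, and a summed level of 8505, 2279 and 4613 FPKM in WT, Dspp+/- and Dspp-/-. The 5 chondrocyte genes of 6 that passed the filter were lower too, with medians of -3.00 and -1.04 and sums of 1568, 444 and 691 FPKM. Col2a1, the collagen that defines cartilage, was present throughout at 761, 94.2 and 308 FPKM, and Col9a1 was near 0 in Dspp+/- at 14.9, 0.443 and 7.39. The 6 erythroid genes (medians 2.38 and 2.23) and the 7 neutrophil genes (1.97 and 2.52) were all at least 2-fold higher in both mutants. Of all genes, 4.88% were in Dspp+/- and 4.05% in Dspp-/-. The sums were 830, 3499 and 3340 FPKM for the erythroid list and 589, 2555 and 3454 FPKM for the neutrophil list. The B cell list had medians of 1.72 and 1.18 (sums 15.7, 57.1 and 38.9 FPKM), the endothelial list 0.25 and 0.23 (97.1, 115 and 111 FPKM), and the adipocyte list -0.27 and 1.14 (52.7, 48.1 and 116 FPKM). In Dspp+/- 4 B cell genes were higher and 1 (Vpreb1) lower, and 3 endothelial genes were higher and 1 (Emcn) lower. In Dspp-/- all genes of both lists were higher. Of the 4 adipocyte genes that passed the filter, 2 were higher and 2 lower in Dspp+/-, and 4 were higher in Dspp-/-. Of all genes compared, 56.3% were higher in Dspp+/- and 50.7% in Dspp-/-.

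Skeletal muscle genes were abundant in all 3 condyle libraries, with sums of 11125, 15401 and 12557 FPKM, and Tnnc2 was the 1 gene of the list at or near 0, with 0, 1 and 0 fragments. Of the 9 muscle genes that passed the filter, 7 were higher in Dspp+/-, with a median of 0.42, and 5 in Dspp-/-, with a median of 0.07. Over all genes 56.3% were higher in Dspp+/- and 50.7% in Dspp-/-, so the count in Dspp-/- was near that share. Myh4, the myosin of the fastest fibres, had 124 FPKM in WT, then 18.2 in Dspp+/- and 111 in Dspp-/-, and Actn3, a Z-disc gene of fast fibres, had 122, 31.0 and 89.5. These were the 2 muscle genes lower in Dspp+/-, and Myh2 had 342, 706 and 359 FPKM. The part of any of these cell types in the clock gene values was not tested.

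**Figure D4:**
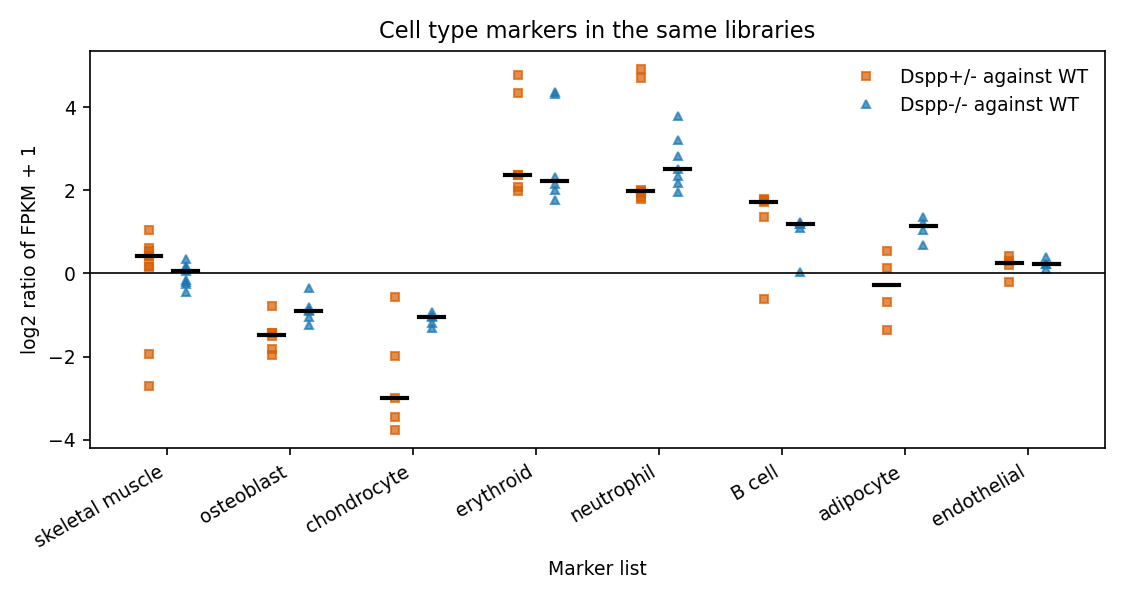
Log2 ratio of FPKM + 1 to WT for each marker gene that passed the filter of 8 cell type lists in Dspp+/- and in Dspp-/-, 1 library each; black bars are medians. Osteoblast and chondrocyte genes lie below 0 and erythroid and neutrophil genes above 0 in both, and the skeletal muscle list spans -2.70 (Myh4) to 1.04 (Myh2) in Dspp+/-.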

How the data were processed

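The authors deposited 1 table with a value per gene for WT, Dspp+/- and Dspp-/- condyles, made from poly(A)-selected, paired-end libraries. Its unit is not named, and the deposited values were read as FPKM because FPKM times merged exon length (GENCODE M21) was a whole multiple of 1 step per library, within 0.05 fragments or the rounding of the values, for 98.2% of 26641 genes and for all 10 clock genes. The submitters' processing notes name HISAT2 2.1.0, StringTie 1.3.3b and the human build hg38 for these mouse samples, and strand use is not given in the sources used here. Gene positions are those of the authors' table and differ from GRCm38, where 578 genes share both ends. In this unit a gene reads lower when other genes take more of a library.

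Genes were compared as log2 ratios of FPKM + 1, which understate changes of low genes, and counted past 2-fold among genes averaging 1 FPKM or more. Ratios of FPKM carry 95% Clopper-Pearson intervals from the recovered fragments, levels exact Poisson intervals, and contrasts intervals from the same fragments on the log scale, with values under a floor of 3 fragments set to it. These cover counting error only. The script was tested on simulated data. Genes named were the 10 members, their partners by role, and the 3 nearest in pattern; of the glucocorticoid and immediate early lists, the 4 most abundant in WT. Marker genes, Pdk4, Atf3 and Fos were named after their values were seen. The members, lists and alternatives were chosen with earlier results of these data known. Overlaps and shared sequences come from GENCODE M21, promoters from RefSeq. A few partner genes are not reported here. The gene Dspp was not analysed here, so genotype labels were not checked against it. Scripts ran in Python 3.11.15 with scipy 1.17.1, numpy 2.4.6 and pandas 2.3.3, and plots in matplotlib 3.10.9.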

Additional observations from a re-analysis of the deposited data

How the results depend on the processing

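With 1 library per genotype no library could be left out. No paired analysis was possible because each genotype has 1 library. Scaling shifted the median log2 ratio of all genes by under 0.1, and median-ratio scaling moved none of the 30 log2 ratios of clock genes beyond counting error. Without mitochondrial genes 3 moved and 1 turned (Clock, Dspp-/- against Dspp+/-, to 0.0035), and pseudocounts of 0.1 and 5 moved 7 and 16, keeping their sign.

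With a pseudocount of 0.1 the median of the 7 Per, Dbp, Tef and Nr1d genes was -0.88 in Dspp+/- against WT and 1.23 in Dspp-/- against Dspp+/-, and with 5 it was -0.50 and 0.73, and 0.16 in Dspp-/- against WT, which was 0.29 without mitochondrial genes. The median of Clock and Npas2 is a midpoint of 2 genes. With pseudocounts of 0.1 and 5 it was -0.63 and -0.28 in Dspp-/- against WT, and -0.80 and -0.38 against Dspp+/-. The differences of the clock contrast became -1.24, 0.46 and 1.70 (Dspp+/- minus WT, Dspp-/- minus WT, Dspp-/- minus Dspp+/-) with a pseudocount of 1, and -3.39, 1.19 and 4.58 for Dbp against Npas2. Against Clock alone the last was 1.36, and that of Dspp-/- minus WT turned to -0.088.

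Numbers of genes at least 2-fold higher and lower followed the pseudocount and filter by construction. They were 971 and 605 (Dspp+/- against WT), 836 and 363 (Dspp-/- against WT) and 223 and 214 (Dspp-/- against Dspp+/-) with a pseudocount of 0.1, and 185 and 156, 136 and 45, and 36 and 36 with 5, beside 636 and 373, 527 and 179, and 111 and 104. With a mean of at least 5 FPKM, 281 were higher in Dspp+/-, 228 and 110 in Dspp-/- against WT, and 57 and 52 between the mutants, for which no filter gave 172 and 170.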

Other observations

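Per1 also responds to glucocorticoids, and 11 glucocorticoid-responsive genes other than Per1 were read beside it. In Dspp+/- 9 of the 11 were lower than in WT and in Dspp-/- 10 were, where 56.3% and 50.7% of all genes were higher. The median log2 ratios of the list were -0.26 and -0.29, beside 0.058 and 0.007 over all genes. At least 2-fold lower were 1 of the 11 in Dspp+/- and 3 in Dspp-/-, where 2.86% and 1.37% of all genes were. Tsc22d3, which encodes the leucine zipper protein GILZ, had 153 FPKM in WT, then 87.3 in Dspp+/- and 91.6 in Dspp-/-, the order of Per1. Ddit4, an inhibitor of mTORC1 signalling, had 150, 49.8 and 43.0 FPKM and was at least 2-fold lower in both mutant libraries. Klf9 had 74.7, 61.8 and 70.8 FPKM, and Cdkn1a had 59.0, 49.1 and 28.0, at least 2-fold lower in Dspp-/-. Pdk4, a regulator of glucose oxidation abundant in muscle, was the 1 gene of the list at least 2-fold higher, where 4.88% and 4.05% of all genes were. It had 52.7, 297 and 133 FPKM.

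Immediate early genes, which rise within minutes of a stimulus and to which Per1 also belongs in some tissues, were read in the same way. Of the 9 that averaged 1 FPKM or more, 6 were higher in Dspp+/- and 7 in Dspp-/-, with medians of 0.11 and 0.08, where 56.3% and 50.7% of all genes were higher. On the log2(FPKM + 1) scale Atf3 was the 1 gene of the list at least 2-fold higher, and only in Dspp+/-, where 4.88% of all genes were. Atf3 had 2.57, 6.31 and 5.76 FPKM in WT, Dspp+/- and Dspp-/-, and Fos had 5.08, 8.64 and 11.1. As ratios of FPKM to WT in Dspp-/-, both were past 2-fold, Atf3 at 2.24 (1.79 to 2.82) and Fos at 2.19 (1.88 to 2.55). Dusp1 had 39.8, 37.6 and 40.2 FPKM, Jun 31.2, 33.7 and 27.6, Junb 24.0, 16.5 and 13.9, and Ier2 16.1, 19.9 and 17.1.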
